A study of Arabidopsis thaliana with 4 samples.

Results

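The autophagy genes of Arabidopsis thaliana were examined in ced2, a mutant, and its wild type after osmotic stress. The set was chosen by locus and holds 34 genes: ATG1a, ATG2 to ATG7, the 9 ATG8 genes, ATG9 to ATG13, 7 genes of the ATG18 family, the lipid kinase genes VPS34 and VPS15, and the receptor gene NBR1. Of the 34, 33 had at least 1 probe on the array, out of 25356 genes with a probe, and all 33 were among the 20835 genes tested. ATG18b (AT4G30510) matched no probe used here.

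Whole seedlings were compared in 2 groups, ced2 and WT, with 2 arrays each. The ced2 mutant and the WT share the gl1-Col0 background, and the WT carries luciferase under the NCED3 promoter (NCED3pro:LUC). Every group was 14 d old and had spent 6 h in a solution of 40% polyethylene glycol (PEG), which draws water out of tissue, so that no unstressed seedlings enter the comparison. Each array holds RNA pooled from the whole seedlings of 20 plants, and per the labels the 2 arrays of a genotype are biological replicates. The labels name neither the gene mutated in ced2 nor how many lines or alleles were used. The study looked for genes whose response to osmotic stress differed between the genotypes.

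Autophagy carries parts of the cytoplasm to the vacuole. A kinase complex around ATG1 starts the process, ATG9 vesicles, ATG2 and ATG18 proteins help a membrane to grow, a lipid kinase marks it, and a pair of ubiquitin-like conjugation systems attach ATG8 to the lipid of the closing autophagosome. In Arabidopsis, autophagy genes are known to be induced by starvation, drought and leaf senescence, and mutants that lack them age early and tolerate drought poorly.

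The sign of every difference here depends on which deposited labels are followed. The authors' value table holds the same measurements under the opposite genotype names. Its columns labelled ced2 1 and ced2 2 matched the WT scanner files 1 and 2, and its columns labelled WT 1 and WT 2 matched the ced2 scanner files 1 and 2. Each match had a correlation of 0.999999 across probes. Values and directions below follow the labels of the scanner files, as "ced2 files" and "WT files". In these, VSR1, a vacuolar sorting receptor gene, had log2 signals of -0.85 and -0.82 in the ced2 files, against 2.80 and 2.87 in the WT files. NCED3, whose enzyme commits carotenoids to abscisic acid synthesis, had -0.65 and -0.67 in the ced2 files, against 0.68 and 0.67 in the WT files. All log2 signals are relative to the array's 75th percentile, which is 0, and compare 1 probe between arrays, not genes with each other.

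Autophagy genes were lower in the ced2 files almost throughout. Of the 33 genes measured, 30 fell, 0 rose and 3 did not pass the threshold, an adjusted p of 0.05 in limma's test over all genes. At an unadjusted p of 0.05 in the same test, 30 were lower and 0 higher. Over all genes tested, 35.6% were called lower and 42.4% higher. The median log2 difference, ced2 files minus WT files, was -0.52 over the 33 genes, against 0.05 over all genes tested. The falls were modest: they ran from 1.17-fold in ATG12b to 2.01-fold in ATG13b, which was the 1 gene to reach 2-fold, where 3.32% of all genes were called lower by that much. The ced2 signals lay below both WT signals in 31 of the 33 genes, which 41.7% of all genes also showed. The members' replicates lay close together, with a median gap of 0.0278 between the ced2 arrays and 0.0234 between the WT arrays, against a median absolute difference of 0.516 between genotypes. Over all genes the gaps were also small, at 0.033 and 0.0449, against a median absolute difference of 0.362. These signals and differences depend on the scaling to each array's 75th percentile, which was higher on the ced2 arrays. Before scaling, ATG13b was still apart, with intensities of 214 and 258 in the ced2 files, against 398 and 316 in the WT files. Unscaled, NBR1 overlapped (125142 and 145328, against 155076 and 135855), as did ATG18a (13537 and 15715, against 15308 and 12508). In the 3 genes that did not pass, ATG18c, ATG18d and ATG10, both unscaled ced2 signals lay above both WT signals. Those of ATG10 were 1076 and 1292 in the ced2 files, against 947 and 816 in the WT files. Members were not counted on the unscaled signals.

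**Figure D1:**
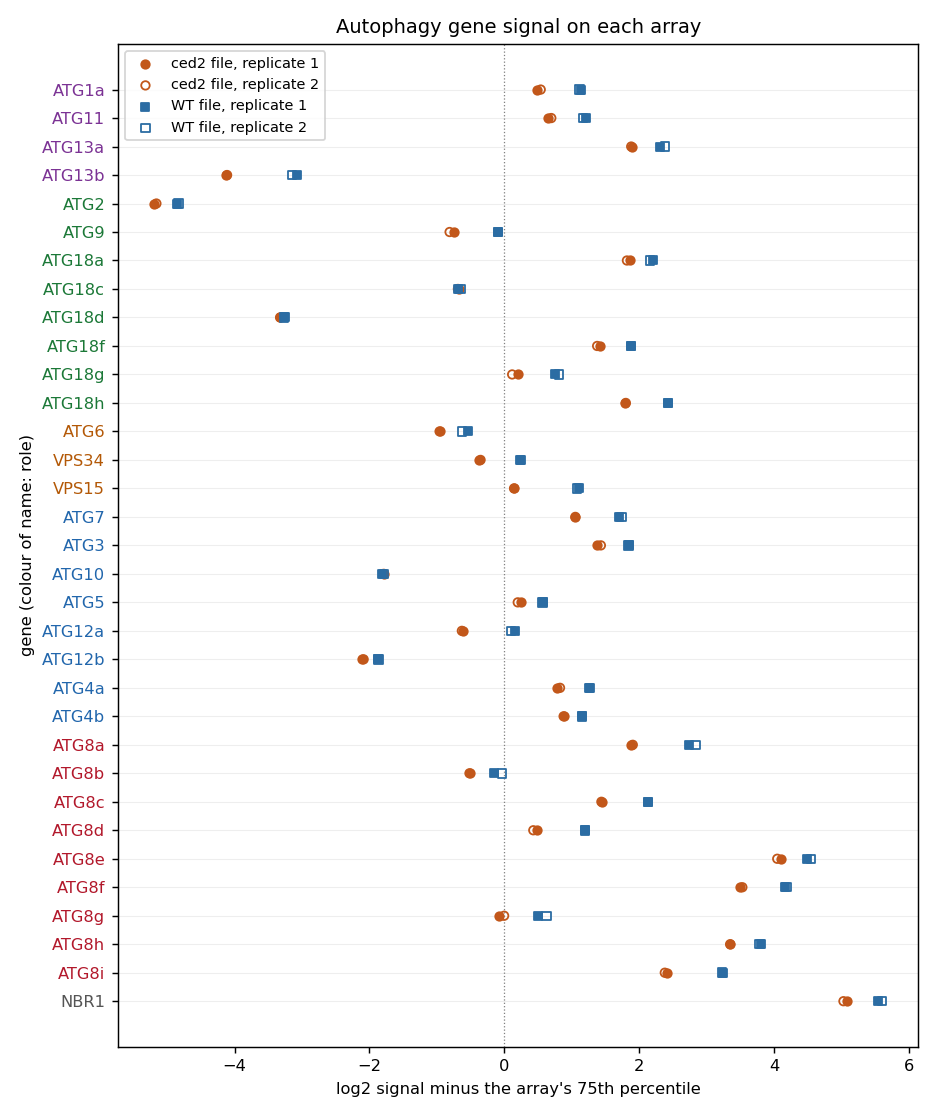
Log2 signal of each measured autophagy gene, relative to the array's 75th percentile, on the 2 ced2 arrays (circles) and the 2 WT arrays (squares), with gene names coloured by role. The ced2 points lie left of both WT points in 31 of 33 rows; in the rows of ATG18c and ATG10 they overlap.

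All 4 genes of the initiation complex fell. ATG1a (AT3G61960), the protein kinase that starts the process, had signals of 0.49 and 0.54 in the ced2 files, against 1.13 and 1.11 in the WT files. It fell by 0.61 on the log2 scale (SE 0.0287, limma adjusted p = 0.000441). ATG13b (AT3G18770), a regulatory partner of the kinase, had -4.12 and -4.11 in the ced2 files, against -3.07 and -3.15 in the WT files, and fell by 1.01 (SE 0.0374, limma adjusted p = 0.000299). In both genes the groups were clearly apart on this scale, by many times the gap between replicates. Unscaled, ATG1a overlapped, with intensities of 5229 and 6482 in the ced2 files, against 7304 and 6058 in the WT files. The paralogue ATG13a (AT3G49590) had 1.89 and 1.88 in the ced2 files, against 2.31 and 2.38 in the WT files, and fell by 0.46. ATG11 (AT4G30790), a scaffold of the complex, fell by 0.52.

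Among the genes of membrane delivery, 6 of the 8 measured fell and 2 did not pass. ATG9 (AT2G31260), the transmembrane protein of the vesicles that seed the autophagosome, had -0.75 and -0.81 in the ced2 files, against -0.09 and -0.09 in the WT files. It fell by 0.69 (SE 0.0322, limma adjusted p = 0.000434). The ATG18 genes encode WD40-repeat proteins that bind the lipid made by VPS34 (AT1G60490), and they split. ATG18h (AT1G54710) had 1.79 and 1.80 in the ced2 files, against 2.43 and 2.43 in the WT files, and fell by 0.63 (limma adjusted p = 0.000259). ATG18g (AT1G03380) fell by 0.62, ATG18f (AT5G54730) fell by 0.48 and ATG18a (AT3G62770), the member best known from mutants, fell by 0.34.

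ATG18c (AT2G40810) and ATG18d (AT3G56440) did not follow. ATG18c had -0.67 and -0.69 in the ced2 files, against -0.69 and -0.65 in the WT files, so that the groups overlapped. Its difference was -0.01, with a 95% interval from -0.09 to 0.07. ATG18d had -3.32 and -3.32 in the ced2 files, against -3.25 and -3.27 in the WT files, a difference of -0.06 (limma adjusted p = 0.0663). The ATG18d result depended on the scaling: it fell by 0.27 with quantile normalization and fell by 0.38 with normexp background correction, and passed in both. ATG2 (AT3G19190), which moves lipid into the growing membrane, was faint, at -5.19 and -5.16 in the ced2 files, against -4.85 and -4.83 in the WT files. It fell by 0.33, fell by 0.55 with quantile normalization and fell by 0.91 with normexp, but the call was lost when its probes were averaged (-0.71, limma adjusted p = 0.262).

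All 3 genes of the lipid kinase complex fell. VPS15 (AT4G29380), its regulatory subunit, had 0.14 and 0.14 in the ced2 files, against 1.10 and 1.08 in the WT files, and was 1.93-fold lower (SE 0.0232 on the log2 scale, limma adjusted p = 0.000191). VPS34, the catalytic subunit, had -0.37 and -0.35 in the ced2 files, against 0.23 and 0.25 in the WT files, and was 1.52-fold lower. ATG6 (AT3G61710), the plant form of Beclin 1, fell by 0.37 (limma adjusted p = 0.00347). These subunits also serve endosomal sorting, in which VPS34 is the only enzyme of its kind in plants.

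**Figure D2:**
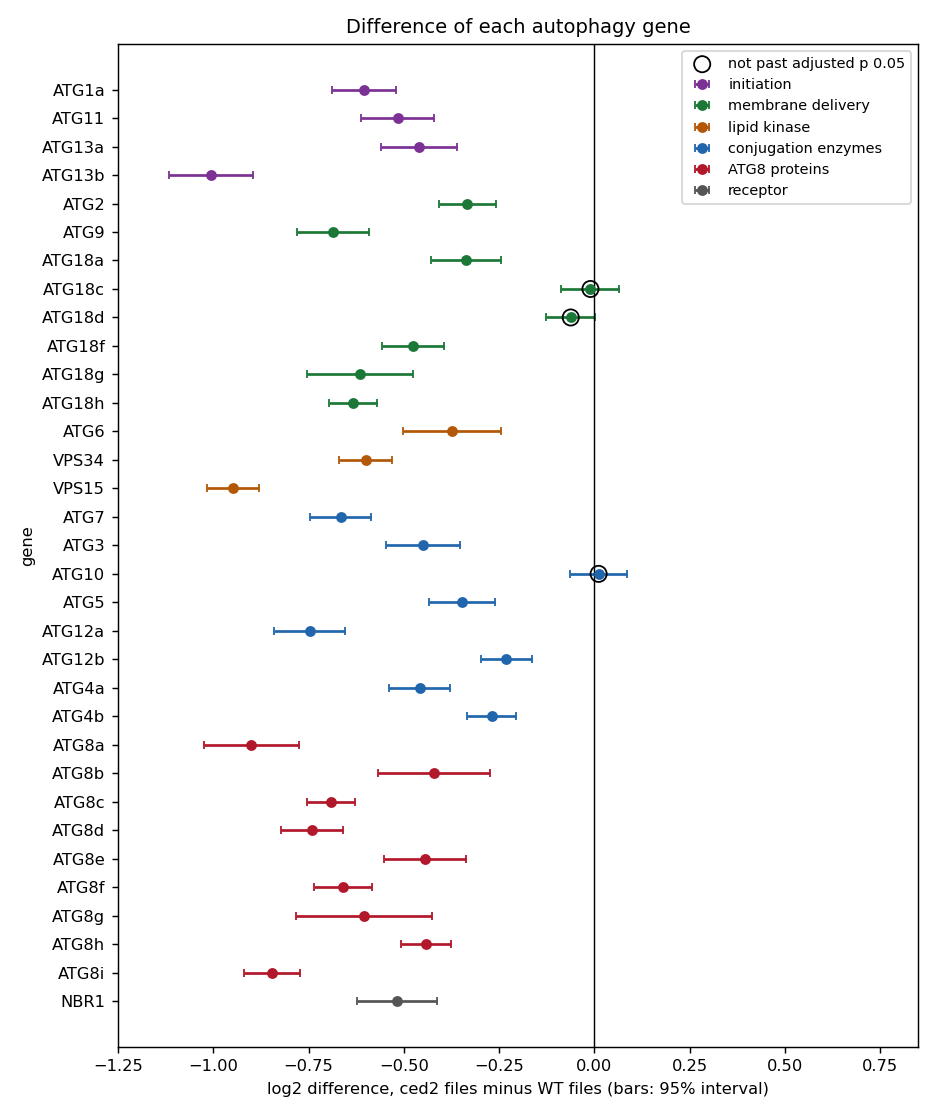
Log2 difference, ced2 files minus WT files, of each measured autophagy gene, with its 95% interval from limma, coloured by role. The 30 genes that passed lie between -1.01 and -0.23, and the 3 ringed genes, ATG18c, ATG18d and ATG10, have intervals that include 0.

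Of the 8 genes for conjugation enzymes and their partners, 7 fell and 1 did not pass. ATG7 (AT5G45900), the activating enzyme that both conjugation systems share, had 1.04 and 1.05 in the ced2 files, against 1.69 and 1.74 in the WT files. It fell by 0.67 (SE 0.0271, limma adjusted p = 0.000343). ATG3 (AT5G61500), which passes ATG8 to the lipid, fell by 0.45. ATG5 (AT5G17290), the protein to which ATG12 is joined, had 0.25 and 0.20 in the ced2 files, against 0.57 and 0.57 in the WT files, and fell by 0.35.

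Both ATG12 genes fell. ATG12a (AT1G54210) had -0.61 and -0.63 in the ced2 files, against 0.16 and 0.10 in the WT files, and fell by 0.75, while ATG12b (AT3G13970) fell by 0.23, and fell by 0.35 with quantile normalization. The 95% interval ran from -0.84 to -0.65 for ATG12a and from -0.30 to -0.16 for ATG12b; the difference between the genes was not tested. ATG10 (AT3G07525), the enzyme that joins ATG12 to ATG5, was the gene of this group that did not pass. It had -1.79 and -1.79 in the ced2 files, against -1.82 and -1.78 in the WT files, a difference of 0.01 with a 95% interval from -0.06 to 0.09. Its sign turned with quantile normalization (-0.10, limma adjusted p = 0.0229) and with normexp (-0.13, limma adjusted p = 0.035), where it passed as lower.

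The proteases ATG4a (AT2G44140) and ATG4b (AT3G59950) trim ATG8 before conjugation and release it afterwards. ATG4a had 0.78 and 0.82 in the ced2 files, against 1.27 and 1.25 in the WT files, and fell by 0.46. ATG4b fell by 0.27 at its brightest probe (limma adjusted p = 0.00133) and fell by 0.0886 with its probes averaged (limma adjusted p = 0.0314). Its other probes did not agree on a direction, as described below.

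All 9 ATG8 genes, which encode the small proteins that coat the autophagosome and dock cargo receptors, fell, with a median of -0.66 and a range from -0.90 to -0.42. ATG8a (AT4G21980) had 1.87 and 1.90 in the ced2 files, against 2.74 and 2.84 in the WT files, and was 1.87-fold lower (SE 0.0424 on the log2 scale, limma adjusted p = 0.000438). ATG8i (AT3G15580) had 2.40 and 2.38 in the ced2 files, against 3.25 and 3.23 in the WT files, and was 1.80-fold lower (SE 0.0248, limma adjusted p = 0.000225). In both genes the ced2 and WT signals did not overlap.

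ATG8d (AT2G05630) fell by 0.74, ATG8c (AT1G62040) fell by 0.69, ATG8f (AT4G16520) fell by 0.66 and ATG8g (AT3G60640) fell by 0.60. The smallest differences in the family were those of ATG8e (AT2G45170) at -0.44, ATG8h (AT3G06420) at -0.44 and ATG8b (AT4G04620) at -0.42. ATG8h had 3.35 and 3.35 in the ced2 files, against 3.80 and 3.78 in the WT files. ATG8h and ATG8i form a separate branch of the family whose proteins end in the glycine that conjugation uses, so that they need no trimming, and they differed by -0.44 and -0.85. Similar copies within the family may share hybridization, and the probes' sequences were not used here to separate them.

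NBR1 (AT4G24690), the receptor that links ubiquitin-tagged protein aggregates to ATG8, had 5.07 and 5.02 in the ced2 files, against 5.54 and 5.60 in the WT files. It fell by 0.52 (SE 0.0357, limma adjusted p = 0.000929), and fell by 0.32 with quantile normalization.

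The probes of a gene mostly moved together. The 33 genes were covered by 54 probes, and 15 genes had more than 1. When each probe was tested on its own, 44 of the 51 that could be tested were lower, 1 was higher and 6 did not pass, against 34.8% lower and 39.3% higher over all probes tested. In 13 of the 14 genes with more than 1 tested probe those probes had differences of the same sign, and in 11 of the 14 they had the same call. The exceptions in the call were ATG2, ATG4b and ATG6. The median spread between a gene's tested probes was 0.0714. ATG8a differed by -0.90 and -0.96 at its probes, ATG8e by -0.44 and -0.43, ATG3 by -0.45 and -0.44 and the tested probes of ATG13b by -1.01 and -1.04.

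ATG4b was the gene whose probes split. Its 4 probes differed by -0.27, -0.21, -0.04 and 0.17, and the array assigns them to 3 transcript accessions. The probe that was higher had -4.16 and -4.16 in the ced2 files, against -4.33 and -4.33 in the WT files, so its replicates were close and its rise passed (limma adjusted p = 0.00595). The second probe of ATG2 was dim on ced2 replicate 2 (-8.78, against -6.45 on ced2 replicate 1, and -7.01 and -6.05 in the WT files) and did not pass.

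**Figure D3:**
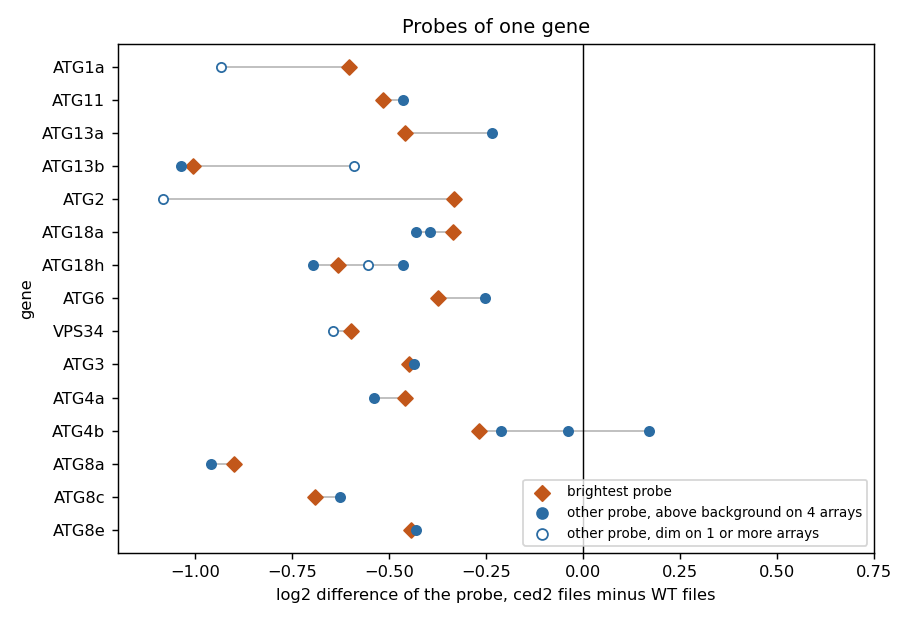
Log2 difference, ced2 files minus WT files, of every probe of the 15 autophagy genes with more than 1 probe; the diamond is the brightest probe, which stands for the gene, and open circles were not well above background on at least 1 array. All probes lie left of 0 except 1 of the 4 of ATG4b, at 0.17.

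All 33 genes lay between -1.01 and 0.01. The members' median absolute difference was 0.516, and that of all genes was 0.362. Bright genes tended to be lower across the array, and the members were mostly bright. With the tested genes split into 4 bins of equal size by mean signal, 15 members lay in the brightest bin and 13 in the next. In the brightest bin 48.6% of all genes were lower, with a median of -0.09, and 15 of the 15 members there fell, with a median of -0.48. In the next bin 43.4% of all genes were lower, with a median of -0.03, and 12 of the 13 members there fell, with a median of -0.60. Quantile normalization, which gives all arrays the same distribution, left 32 of the 33 lower (38.0% of all genes) with a median of -0.49. Normexp moved the median of all genes to -0.14 and also left 32 lower (47.7% of all genes) with a median of -0.51.

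**Figure D4:**
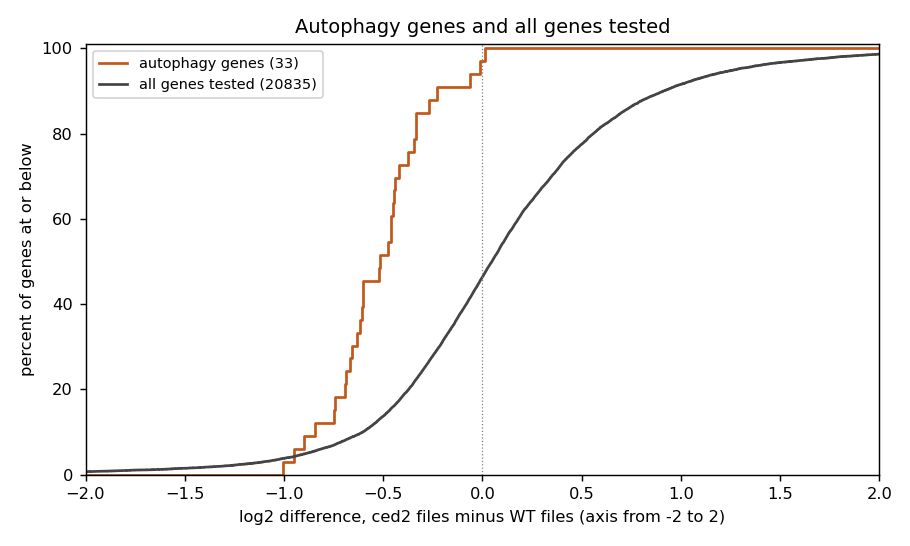
Percent of genes at or below each log2 difference, ced2 files minus WT files, for the 33 autophagy genes and the 20835 genes tested. The autophagy curve lies left of the other over most of its range, with medians of -0.52 and 0.05.

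A further 21 genes of the autophagy core, its membrane partners and its receptors were mostly lower too. Of the 20 that were tested, 19 fell and 1 rose, against 35.6% and 42.4% of all genes, with a median of -0.43. The kinase gene ATG1t (AT1G49180) had -1.98 and -1.98 in the ced2 files, against -1.05 and -0.89 in the WT files, and fell by 1.00 (limma adjusted p = 0.000828). ATG14b (AT4G08540) and ATG14a (AT1G77890), which steer the lipid kinase complex to autophagy, differed by -0.79 and -0.73, and ATG101 and ATG16 (AT5G50230) by -0.50 and -0.45. The other kinases, ATG1c (AT2G37840) and ATG1b (AT3G53930), differed by -0.52 and -0.39. ATG18e was not well above background and was not tested.

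The other genes named from this list differed in size, and all but EXO70B1 were lower in the ced2 files. TSPO, a membrane protein that abscisic acid induces and that autophagy degrades, had 5.25 and 5.22 in the ced2 files, against 5.85 and 5.89 in the WT files, and fell by 0.64. With quantile normalization TSPO fell by 0.37. The ATG8-interacting proteins ATI2 and ATI1 differed by -0.67 and -0.43, and both passed. RPN10, a proteasome subunit that also serves as the receptor for its breakdown, fell by only 0.10 (limma adjusted p = 0.0191), a call lost with quantile normalization and with normexp. EXO70B1, an exocyst subunit that acts in transport to the vacuole, was the gene that rose, by 0.20 (limma adjusted p = 0.00432).

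Genes of the TOR and SnRK1 pathways, which control autophagy, were mostly lower at their brightest probes. TOR kinase represses autophagy and SnRK1 kinase promotes it, by acting on the ATG1 complex. Of 11 tested genes of both pathways, not all of which encode kinases, 8 fell, 2 rose and 1 did not pass. Over all genes 35.6% were lower and 42.4% higher. With averaged probes 5 fell and 3 rose, against 33.5% lower and 42.7% higher over all genes. TOR had 0.13 and 0.18 in the ced2 files, against 0.94 and 0.96 in the WT files, and fell by 0.80 (SE 0.029, limma adjusted p = 0.000289). KIN10, a catalytic subunit of SnRK1, had 0.75 and 0.77 in the ced2 files, against 1.47 and 1.39 in the WT files, and fell by 0.67 (SE 0.0377, limma adjusted p = 0.000605). The repressor and the activator therefore both had lower signals in the ced2 files.

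The regulatory subunits KINbeta1 and SNF4 differed by -0.85 and -0.76, and RAPTOR1B, the partner of TOR, fell by 0.55. When probes were averaged, the calls of RAPTOR1B (-0.25, limma adjusted p = 0.465) and KINbeta1 (-0.56, limma adjusted p = 0.055) were lost. The second catalytic subunit gene, KIN11, differed by -0.09 at its brightest probe (limma adjusted p = 0.0232). With its probes averaged it passed as higher, by 0.10 (limma adjusted p = 0.019). Its lower call was lost with quantile normalization (limma adjusted p = 0.112) and with normexp (limma adjusted p = 0.231). S6K1 and S6K2, kinases that TOR activates, rose by 0.47 and 0.22. The S6K2 call (limma adjusted p = 0.0333) was lost without a filter on dim probes (limma adjusted p = 0.0665) and without ced2 replicate 2 or either WT replicate, and its difference was 0.34 with normexp.

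The 3 listed regulators of autophagy gene transcription rose, where 42.4% of all genes did. TGA9, which activates ATG8 genes in Arabidopsis, had -1.86 and -1.85 in the ced2 files, against -2.33 and -2.38 in the WT files, and rose by 0.50 (limma adjusted p = 0.000659), or 0.26 with normexp. WRKY33 rose by 0.30 and HSFA1A, whose role in autophagy is known from tomato, by 0.15; the HSFA1A call was lost with quantile normalization and with normexp.

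Genes of leaf senescence and sugar starvation, states in which autophagy genes are induced, fell in 10 of 14 cases, rose in 2 and did not pass in 2, with a median of -0.89. Over all genes 35.6% were lower and 42.4% higher. SEN1 had 4.37 and 4.32 in the ced2 files, against 5.98 and 6.09 in the WT files, and was 3.23-fold lower (limma adjusted p = 0.000217). The transcription factor gene NAP, a regulator of leaf senescence, fell by 1.08, NYE1, which acts in chlorophyll breakdown, fell by 0.88 and the glucosidase gene DIN2 fell by 1.11. The genes that rose were SAG13, by 0.25, and WRKY53, by 0.95, both named after their values were seen; with normexp the call of WRKY53 was lost.

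**Figure D5:**
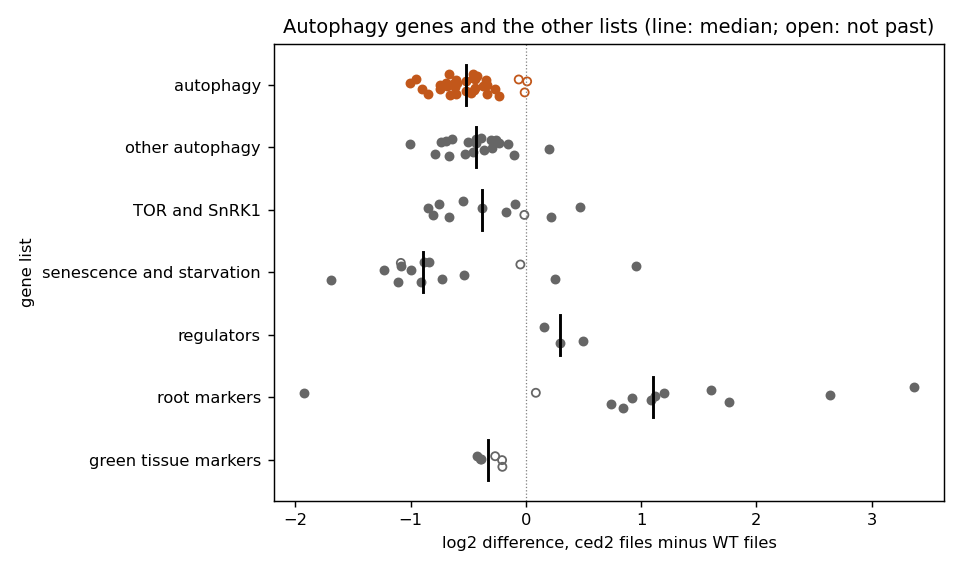
Log2 difference, ced2 files minus WT files, of each tested gene in the autophagy set and in 6 other lists; vertical lines are medians and open points did not pass an adjusted p of 0.05. Medians run from -0.89 in the senescence and starvation list to 1.10 in the root markers, with the autophagy set at -0.52.

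Root markers were mostly higher in the ced2 files. Of 12 root markers 10 were higher, 1 was lower and 1 did not pass, where 42.4% of all genes were higher and 35.6% lower. Dim genes tended to be higher across the array. In the dimmest of the bins by mean signal 48.9% of all genes were higher and 20% lower, with a median of 0.31. How many root markers lay in that bin was not counted. The endodermal gene CASP1 rose by 2.63 and IRT1, the iron transporter gene of the root epidermis, by 3.37, or 2.103 with normexp. The lower one was NRT2.1, named after its values were seen, which was not well above background in the ced2 files and at least 2.21-fold lower. The summed levels of the list (in units of the array's 75th percentile) were 5.68 and 5.67 in the ced2 files, against 2.38 and 2.38 in the WT files. Such a sum adds probes whose levels cannot be compared, and PHT1;1 alone gave 2.75 and 2.74 of it in the ced2 files, against 1.29 and 1.29 in the WT files.

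The calls of green tissue markers depended on the setting. Of 6, 2 were called lower, LHCB1.3 and LHCA1, and 4 did not pass, a share of 33.3% where 35.6% of all genes were lower, and with quantile normalization or the replicate number as a block neither call held. Before scaling, LHCB1.3 had intensities of 456019 and 459696 in the ced2 files, against 470641 and 454882 in the WT files, and PSBO1 had 473077 and 466480 in the ced2 files, against 462666 and 462691 in the WT files. Their unscaled log2 differences were -0.02 and 0.02, and those of LHCA1, RBCS1A, GAPA and RCA were 0.02, 0.15, 0.21 and 0.21. After division by each array's 75th percentile all 6 had lower signals in the ced2 files. The sign of these differences depends on that scaling, the cause was not tested, and no fold is given. The summed scaled levels of the list were 617 and 528 in the ced2 files, against 672 and 773 in the WT files, and carry the same limit. Every marker of both lists except NRT2.1 was well above background on all 4 arrays. The part of organ proportions in the autophagy result was not tested, and in whole seedlings fewer cells of a type cannot be told apart from less RNA per cell. The 4 arrays shared a slide and a scan time. Because ced2 occupied positions 4 and 3 on it and WT positions 1 and 2, an effect of position cannot be told apart from one of genotype.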

How the data were processed

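For each spot the scanner files give, per the file headers, a processed signal intensity (background-subtracted and spatially detrended) and the median intensity of spot and local background, for 1 dye per array. Per the submitters' processing notes, Agilent Feature Extraction 10.7.1.1 made them. The authors' value table holds log2 values whose scale and centring are not given in the sources used here. They equalled the log2 processed signal minus the 75th percentile, centred on each probe's median, with 100% of values within 0.01 after a constant shift per column. Column medians were 0.01 and -0.03 (labelled ced2) and 0.08 and -0.03 (labelled WT).

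From the log2 processed signal of each array its own 75th percentile was subtracted. That percentile was an intensity of 3710 and 4444 on the ced2 arrays and 3322 and 2790 on the WT arrays. Control and outlier spots were left out, 70 of 43603 probes were dropped, and spots of a probe were averaged. Accessions without versions were matched to a RefSeq table (TAIR10.1), which gave probes their genes and names. Genome positions were not used, since the array names an older build. In all, 34236 probes had a gene and 9297 had none. The brightest probe stood for each of 25356 genes (6903 had several). The 20835 genes with that probe well above background on both arrays of a group were tested with limma 3.58.1 in R 4.3.3, two-sided, with Benjamini-Hochberg adjustment over all of them. Residual degrees of freedom were 2, and the prior added 1.49. Where a probe was dim in 1 group, "at least" sets the bright mean against the higher, per array, of the dim signal and the lowest signal well above background. The number of arrays limits the precision.

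Members and lists were chosen with earlier results of these data known. The text names all members, VSR1, NCED3, any gene of the other autophagy, kinase and regulator lists, and up to 4 called genes by smallest p of each further list. PSBO1, RBCS1A, GAPA and RCA, which did not pass, were named after their values were seen. Alternatives were quantile normalization, normexp (offset 50, on median intensities), 2 other filters on dim probes, averaged probes, an intensity trend, a block for the replicate number, an adjusted p of 0.01, the value table and leaving out each array. Promoter motifs were not analysed here.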

Additional observations from a re-analysis of the deposited data

How the results depend on the processing

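The count of 30 autophagy genes lower and 0 higher was the same without a filter on dim probes, with a filter asking for all 4 arrays, with an intensity trend, at an adjusted p of 0.01 and without any 1 array. It was 32 with quantile normalization and with normexp, and 29 with averaged probes. Under the value table's own labels 30 were higher and 0 lower, with a median of 0.52. The median was -0.49 with quantile normalization and between -0.50 and -0.49 without 1 array. Normexp moved the genes called higher over the array from 8831 to 5696, so that 36.4% of its calls were higher, against 54.4%. ATG10, near 0 in the main fit, passed as lower with quantile normalization (-0.10) and with normexp (-0.13). It lay between -0.00785 and 0.0296 without 1 array, and ATG18c lay between -0.0289 and 0.00776 without 1 array. LHCA1 was 0.0141 with quantile normalization and KIN11 0.10 with averaged probes. The causes were not tested.

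Green tissue markers had 2 higher and 0 lower with quantile normalization, 1 lower with normexp, 1 higher with averaged probes, 0 lower without a filter and between 0 and 2 lower without 1 array (0 without ced2 replicate 2 or either WT replicate). Root markers had 2 lower with normexp and 0 when all 4 arrays had to be above background, where NRT2.1 left the test. Senescence and starvation genes had 1 higher with normexp. TOR and SnRK1 genes had 1 higher without a filter and between 1 and 2 without 1 array (S6K2 lost its call without ced2 replicate 2 or either WT replicate), and 5 lower with averaged probes. HSFA1A lost its call without ced2 replicate 2 or WT replicate 2, RPN10 without any array except WT replicate 1, and KIN11 without any 1 array. The replicate number as a block left 30 autophagy genes lower and 0 green tissue markers lower, and of the other genes named it ended the call of KIN11 alone; same-numbered deviations had a correlation of 0.05 over tested genes, and the labels give the numbers no shared batch. Signals near background limit ATG2, ATG13b and ATG18d most.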
